A study of Mus musculus with 10 samples.

Results

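Organic anion and cation drug transporters of the kidney are described here as 9 genes, Slc22a2, Slc22a6, Slc22a8, Slc22a12, Slc47a1, Slco1a1, Slco4c1, Abcc4 and Abcb1a. They were chosen by name, as uptake and efflux carriers of the proximal tubule, and all 9 were found among the 43629 genes of the count table. The kidneys came from UM-HET3 mice, a stock bred by crossing several inbred strains so that each animal has its own genotype. All were males, and the labels give their age as 4 months. Control mice (n = 6) ate the diet Purina 5LG6. Rilmenidine mice (n = 4) ate that diet with rilmenidine, a drug against high blood pressure, at 10 ppm during the last month, from the age of 3 months. The labels number the kidneys as replicates and name no animals, so p-values measure the spread between these samples. RNA came from whole tissue, in which fewer cells of a type and less RNA per cell cannot be told apart.

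The proximal tubule clears drugs and metabolites from blood in consecutive steps. Carriers on the blood-facing (basolateral) membrane bring a compound into the cell, and carriers on the urine-facing (apical) membrane pass it on to the tubule fluid. Organic cations enter through Slc22a2 (OCT2) and leave by exchange with protons through Slc47a1 (MATE1). Organic anions enter through Slc22a6 (OAT1) and Slc22a8 (OAT3), which exchange them for dicarboxylates, and the ATP-driven pumps Abcc4 (MRP4) and Abcb1a (P-glycoprotein) export anions and bulky lipophilic compounds. The comparison sets the transcripts of these carriers after a month of rilmenidine against those on the plain diet.

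Start-site sequences are shown for 3 carriers, Slc22a8 and Slc22a6 because they are adjacent genes of like function whose levels are compared below, and Abcc4 because it had the smallest p-value of those tested in edgeR. Slc22a8 (chromosome 19, 8591254 to 8611835) and Slc22a6 (chromosome 19, 8618039 to 8628299) lie in a row on the plus strand of GRCm38, with 6203 bases between them. The windows run from 250 bases before to 50 after a RefSeq start on GRCm38.p6 and were found for 8 of the 9 genes, Slc47a1 being the exception. Capitals mark GTTAAT, one arm of the site bound by hepatocyte nuclear factor 1, a factor of proximal tubule cells, in the first pair of sequences (chr19:8592932-8593231 and chr19:8617746-8618045, plus strand).
Slc22a8: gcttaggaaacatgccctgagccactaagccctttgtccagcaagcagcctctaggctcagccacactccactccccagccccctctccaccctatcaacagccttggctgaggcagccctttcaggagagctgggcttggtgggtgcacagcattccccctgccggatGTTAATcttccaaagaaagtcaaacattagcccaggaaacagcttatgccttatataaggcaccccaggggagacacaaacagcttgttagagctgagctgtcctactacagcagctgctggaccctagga
Slc22a6: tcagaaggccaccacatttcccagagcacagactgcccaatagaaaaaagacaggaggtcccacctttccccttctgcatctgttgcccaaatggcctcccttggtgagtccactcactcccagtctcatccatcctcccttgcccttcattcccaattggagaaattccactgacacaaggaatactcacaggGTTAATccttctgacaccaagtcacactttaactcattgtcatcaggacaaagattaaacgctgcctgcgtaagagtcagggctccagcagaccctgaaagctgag
This motif begins 81 bases before the start of Slc22a8 and 56 bases before that of Slc22a6. Read on both strands, it occurs in 7.1% of 32851 promoter windows of this length, and among the transporter windows it was found in these alone. The complete palindromic site of that factor was in none of the transporter windows and in 0.00913% of all windows.

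Abcc4 (chromosome 14, 118482692 to 118706219, minus strand) has RefSeq starts at 2 places, and in both windows capitals mark TGACNNNGC, the core of the antioxidant response element, on either strand (chr14:118706170-118706469 and chr14:118676882-118677181, minus strand).
Abcc4, outer start: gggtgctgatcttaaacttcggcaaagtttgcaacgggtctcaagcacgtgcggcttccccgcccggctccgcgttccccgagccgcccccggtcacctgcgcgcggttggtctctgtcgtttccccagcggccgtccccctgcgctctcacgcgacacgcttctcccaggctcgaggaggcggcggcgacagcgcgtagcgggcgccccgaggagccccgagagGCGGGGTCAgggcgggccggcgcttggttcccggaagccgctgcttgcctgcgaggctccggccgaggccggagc
Abcc4, inner start: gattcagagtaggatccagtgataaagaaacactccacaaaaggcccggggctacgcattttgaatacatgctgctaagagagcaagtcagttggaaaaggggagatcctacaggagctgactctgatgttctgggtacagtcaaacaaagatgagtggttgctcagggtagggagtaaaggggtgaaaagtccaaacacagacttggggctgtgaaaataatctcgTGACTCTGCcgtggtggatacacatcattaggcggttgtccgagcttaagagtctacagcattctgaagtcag
The match lies on the opposite strand 25 bases before the outer start and on the same strand 23 bases before the inner one. TGACNNNGC is common, being present in 12.4% of all windows, and it was also found for Abcb1a and Slco4c1. Nfe2l2, the gene of the factor NRF2 that binds this element, had 74.9 to 109.6 CPM in the 10 kidneys and a log2 fold change of −0.01 with a standard error (SE) of 0.14. The protein NRF2 and its activity were not measured. A match of letters is a description of the sequence and not of a bound site.

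Library totals were 863605 to 2559118 counts in control kidneys and 1813465 to 3232063 in rilmenidine kidneys. The median total was 1489031 in control and 2483263 in rilmenidine kidneys, with p = 0.0571 in a two-sided exact permutation test. Levels are given as normalized CPM, a unit of counts scaled so that libraries of different depth can be compared. The 6 proximal tubule markers (Lrp2, Slc34a1, Cubn, Slc5a2, Slc5a12 and Slc27a2) summed to 8033 to 9449.6 CPM in control and 7911 to 9289 CPM in rilmenidine kidneys. Slc34a1 makes up most of this sum, with a mean of 5934 CPM over all kidneys. In the order listed, log2 fold changes of the 6 genes were −0.01, −0.04, 0.11, 0.18, −0.34 and 0.10. The 4 liver markers together had at most 31 counts in a library, although part of the labels' extraction text speaks of liver. The nuclear RNA Malat1 stood at 284 and 398 CPM in control kidneys 6 and 2, at 1182 to 2100.2 CPM in the other 4 control kidneys and at 306 to 393 CPM in the rilmenidine kidneys. Reads on 1463 olfactory and vomeronasal receptor genes also set libraries apart, at 4.55 to 6.87 CPM in control 6 and rilmenidine 3 and 4 against 45.3 to 405 CPM in the other 7 libraries.

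Among the 9 transporters, 7 passed the filter, which asked for 6 or more reads in at least 7 of the 10 kidneys, and none of these had an adjusted p-value under 0.05, the share of such genes among all 10055 tested being 0%. The DESeq2 Wald test and the edgeR likelihood ratio test likewise called 0 of the 7. Without adjustment, 1 of the 7, Abcc4, had p under 0.05, against 10.6% of all genes tested. Fold changes on the log2 scale exceeded 0 for 2 of the 7 and were under 0 for 5, with a median of −0.18, where the median of all genes was 0.00 and 50.3% of them were above 0. These counts did not set the transporters apart from the background. None of the 7 tested had groups without overlap, where 1.67% of all genes did, 0.796% with rilmenidine above.

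Abcc4 was the single transporter with an unadjusted p under 0.05 in most other fits, and the share of all genes below that p differed between them. It was 1 of 7 by DESeq2 (9.8% of all genes) and by the likelihood ratio test (9.87%). The filter of at least 1 count in any kidney gave Abcc4 and Slco1a1 of 9 (7.38% of all genes, 4.1% higher in rilmenidine kidneys), and so did the replicate block among 7 (9.22%). With that filter the SEs of Slc22a2, Slc22a6, Slc22a8 and Slc22a12 were 0.157 to 0.159, where the main fit gave 0.134 to 0.183. Its p-values may thus reflect the spread of single genes less. Library size as a covariate gave Abcc4 and Slc22a12 (4.3% of all genes), and Malat1 as a covariate gave Slc22a12 in place of Abcc4 (3.03%). With 1 control kidney left out, Abcc4 alone remained below 0.05 each time, where the share of all genes was 9.4%, 13.5%, 8.52%, 8.05%, 7.29% and 14.4% without control 1 to 6. No transporter was below 0.05 without rilmenidine 1 (8.14% of all genes) or without rilmenidine 2 (12.1%). Abcc4 was below it without rilmenidine 3 (7.64%), and Abcc4 and Slc22a6 were without rilmenidine 4 (9.49%).

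**Figure D1:**
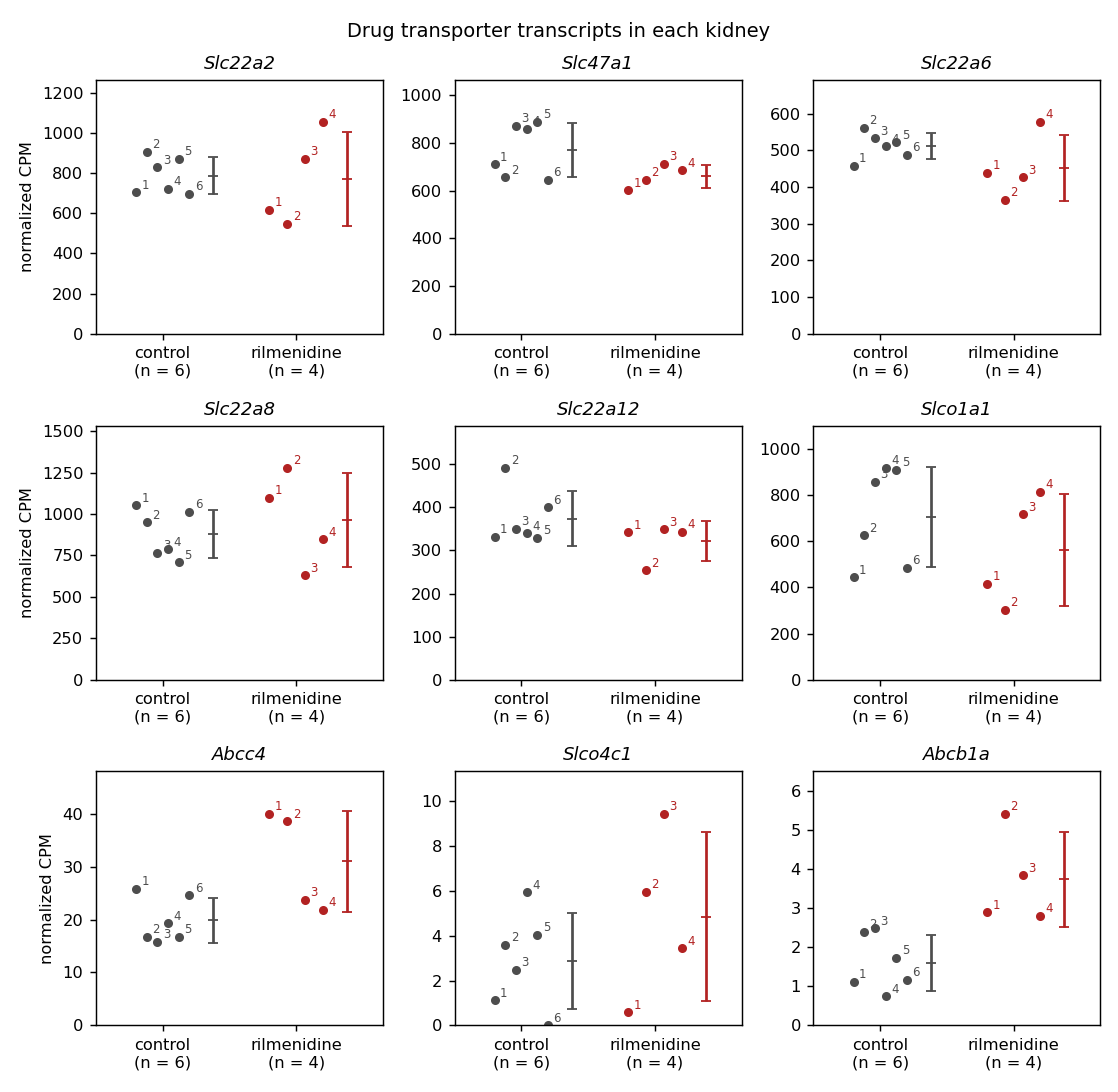
Normalized CPM (vertical axes, each starting at 0) of the 9 transporter genes in control kidneys (grey, n = 6) and rilmenidine kidneys (red, n = 4), with the replicate number beside each point and the mean ± SD at the right of each group. Abcb1a is the only one of the 9 whose groups did not overlap, at 0.743 to 2.49 against 2.81 to 5.43 CPM, and Slc22a2, Slco1a1 and Abcc4 show rilmenidine kidneys 1 and 2 apart from 3 and 4.

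The levels of the 9 genes spanned more than the differences between groups. Scaled to the summed length of annotated exons, the mean over all kidneys was highest for Slc22a2, at 315 CPM per kilobase, followed by Slc22a8 at 233, Slc47a1 at 215, Slc22a12 at 156, Slco1a1 and Slc22a6 both at 123, Abcc4 at 3.81, Slco4c1 at 0.746 and Abcb1a at 0.450 CPM per kilobase. Neighbours in this order were compared within each of the 10 kidneys by two-sided exact permutation of signs, with p-values adjusted over the 8 neighbouring pairs. Slc47a1 exceeded Slc22a12 in 9 of 10 kidneys (adjusted p = 0.0156, exact), and Slc22a6 exceeded Abcc4, and Abcc4 Slco4c1, in 10 of 10 (adjusted p = 0.00781 for each, exact). Slc22a2 exceeded Slc22a8 in 8 of 10 kidneys, which missed the threshold (adjusted p = 0.0781, exact), as did Slc22a12 over Slco1a1 in 6 of 10 (adjusted p = 0.0875, exact). No order could be read between Slc22a8 and Slc47a1, between Slco1a1 and Slc22a6, or between Slco4c1 and Abcb1a (adjusted p = 0.484 to 0.598, exact). The libraries capture the 3′ end of each transcript, so scaling by length can lower long transcripts. The order, and with it the pairs compared, was taken from the means of these same 10 kidneys. The p-values are thus not independent of it and serve as a description only. The order tests apply to the scaled levels only. On the CPM scale Slc22a8 and not Slc22a2 came first, and Slco1a1 stood above Slc22a12, with means of 649 and 353 CPM over all kidneys.

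The cation pathway is represented by Slc22a2 for uptake and Slc47a1 for efflux. Slc22a2 (ENSMUSG00000040966; chromosome 17, 12584132 to 12628488) had 704, 907, 829.9, 723, 869.9 and 696 CPM in control kidneys 1 to 6, and 618, 547, 872 and 1054 CPM in rilmenidine kidneys 1 to 4. The drug-fed kidneys thus fell on both sides of the controls, with 1 and 2 below the lowest control kidney and 4 above the highest. The means were 788 ± 92.2 (SD, n = 6) and 773 ± 234 (SD, n = 4) CPM. For Slc22a2 the log2 fold change was −0.03 (SE 0.17, 95% interval −0.39 to 0.34, adjusted p-value 0.977 by the quasi-likelihood test of edgeR, Benjamini-Hochberg). It turned positive without either of rilmenidine 1 and 2 or either of control 2 and 5, with a highest value of 0.11.

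Slc47a1 (ENSMUSG00000010122; chromosome 11, 61343401 to 61378345) had 710.5, 657, 872, 860.2, 888 and 645 CPM in control kidneys 1 to 6 and 602, 647, 713 and 686 CPM in rilmenidine kidneys 1 to 4. Control kidneys 3, 4 and 5 stood above all others, and rilmenidine 1 stood below every control kidney. Its means were 772 ± 114 (SD, n = 6) and 662 ± 48.3 (SD, n = 4) CPM. The log2 fold change was −0.22 (SE 0.13, 95% interval −0.51 to 0.06, adjusted p-value 0.590), and an exact permutation test of this gene alone gave p = 0.114. With log2 Malat1 as a covariate the value was 0.00, and the 3 control kidneys with the most Slc47a1 are among the 4 with the most Malat1. Malat1 itself had a log2 fold change of −1.73 (SE 0.42, adjusted p-value 0.211 by edgeR). A fit with Malat1 as a covariate therefore cannot fully separate it from the group, for Slc47a1 or for the other genes. The part of Malat1 in the difference was not tested.

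Anion uptake is carried by Slc22a6, Slc22a8 and Slco4c1. Slc22a6 (ENSMUSG00000024650) had 458, 561, 533, 511, 522 and 488 CPM in control kidneys 1 to 6 and 438, 364, 427 and 577 CPM in rilmenidine kidneys 1 to 4. Rilmenidine kidneys 1, 2 and 3 lay below every control kidney, while rilmenidine 4 lay above them all. In control kidneys its coefficient of variation was 7.02%, lower than that of all but 6.29% of the 461 genes with a control mean within 2-fold of it. Means of 512 ± 36.0 (SD, n = 6) and 452 ± 89.6 (SD, n = 4) CPM gave a log2 fold change of −0.18 (SE 0.13, 95% interval −0.46 to 0.10), which missed the threshold (unadjusted p-value 0.194 and adjusted 0.668 by edgeR).

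Slc22a8 (ENSMUSG00000063796) had 1052, 949, 764, 788, 709 and 1013 CPM in control kidneys 1 to 6, and 1097, 1279, 629 and 848 CPM in rilmenidine kidneys 1 to 4. Here rilmenidine 1 and 2 were above and rilmenidine 3 was below the whole range of control kidneys. The means were 879 ± 143 (SD, n = 6) and 963 ± 284 (SD, n = 4) CPM, with a log2 fold change of 0.13 (SE 0.18, 95% interval −0.26 to 0.52, adjusted p-value 0.857 by edgeR). It turned negative with log2 Malat1 as a covariate, at −0.02, and without rilmenidine 2, at −0.03. Per kidney, the ratio of Slc22a8 to Slc22a6 counts was 2.5 and 3.51 in rilmenidine 1 and 2, and 1.47 in both rilmenidine 3 and 4, against 1.36 to 2.30 in control kidneys.

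Slco4c1 (ENSMUSG00000040693; chromosome 1, 96816270 to 96872171), a carrier of cardiac glycosides and thyroid hormones, was close to the limit of detection. Its raw counts were 1, 6, 3, 8, 7 and 0 in control kidneys and 1, 11, 27 and 11 in rilmenidine kidneys, and it did not pass the filter. Pooled over each group, the level was 2.66 CPM (95% exact Poisson interval 1.72 to 3.92) in control and 5.19 CPM (3.85 to 6.85) in rilmenidine kidneys, intervals that cover counting error only. Of the 50 counts in rilmenidine kidneys, 27 came from replicate 3, the kidneys of both groups overlapped, and an exact permutation test of the CPM gave p = 0.305.

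On the apical membrane, Slc22a12 (URAT1; ENSMUSG00000061742; chromosome 19, 6535845 to 6543032) exchanges urate for organic anions. It had 332, 492, 350.2, 340.2, 329 and 400.4 CPM in control kidneys 1 to 6 and 343, 254, 349 and 344 CPM in rilmenidine kidneys 1 to 4. The highest value was in control 2 and the lowest in rilmenidine 2, and the other 8 kidneys lay between 329 and 400.4 CPM. Means were 374 ± 63.4 (SD, n = 6) and 322 ± 45.9 (SD, n = 4) CPM. The log2 fold change was −0.22 (SE 0.14, 95% interval −0.52 to 0.09, adjusted p-value 0.625 by edgeR). With log2 Malat1 or log2 library size as a covariate it was −0.44 and −0.39, with unadjusted p-values of 0.0108 and 0.0370 that did not pass adjustment (0.9996 and 0.975). Slc22a12 lies inside the span of Nrxn2 on the other strand, and with the strand setting not given in the sources used here its counts could include reads of Nrxn2, which itself had at most 191 counts in a library.

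Slco1a1 (ENSMUSG00000041698; chromosome 6, 141907282 to 141946962), an organic anion transporting polypeptide of the proximal tubule brush border that is expressed more strongly in male mice, varied most among the abundant carriers. Control kidneys 1 to 6 had 443, 626, 858, 919, 909.8 and 485 CPM and rilmenidine kidneys 1 to 4 had 416, 302, 718 and 816 CPM. Rilmenidine 1 and 2 were below every control kidney, and rilmenidine 3 and 4 were within the control range. The coefficient of variation in control kidneys was 30.6%, higher than that of 93.6% of the 299 genes with a control mean within 2-fold of it. Means of 707 ± 216 (SD, n = 6) and 563 ± 243 (SD, n = 4) CPM gave a log2 fold change of −0.33 (SE 0.27, 95% interval −0.89 to 0.24, adjusted p-value 0.706 by edgeR), which was 0.03 with log2 Malat1 as a covariate. The 4 androgen-dependent genes read beside it differed among themselves. Kap, which makes up most of their summed level, had a log2 fold change of 0.26 and Cyp4b1 had 0.04, while Odc1 had −0.40 and Acsm3 −1.07, with adjusted p-values of 0.507 to 0.965 by edgeR. Their summed level was 36659 to 52439.7 CPM in control and 41386 to 65232 CPM in rilmenidine kidneys. Odc1 had 148, 182, 377 and 338 CPM in rilmenidine kidneys 1 to 4, lower in 1 and 2 than in 3 and 4, as Slco1a1 was. Kap, at 41762, 36551, 59589 and 49145 CPM in these kidneys, was lower in 1 and 2 as well. Cyp4b1 (5676, 4641, 5259 and 6858 CPM) and Acsm3 (5.22, 10.9, 7.35 and 5.31 CPM) did not divide in this way. The part of these genes in the spread of Slco1a1 was not tested.

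Abcc4 (ENSMUSG00000032849), which exports cyclic nucleotides, urate and conjugated anions, was the one transporter with an unadjusted p-value under 0.05. It had 25.8, 16.8, 15.8, 19.3, 16.8 and 24.6 CPM in control kidneys 1 to 6, and 40.0, 38.6, 23.8 and 21.9 CPM in rilmenidine kidneys 1 to 4. Rilmenidine 1 and 2 stood above all control kidneys, whereas rilmenidine 3 and 4 stood within their range. The means were 19.8 ± 4.33 (SD, n = 6) and 31.1 ± 9.55 (SD, n = 4) CPM, from 19 to 71 raw counts in a library. Its log2 fold change was 0.62 (SE 0.22, 95% interval 0.15 to 1.10), and edgeR gave p = 0.0130 before and 0.337 after adjustment, while an exact permutation test of this gene alone gave p = 0.0381. The difference kept its direction without each kidney in turn, from 0.48 to 0.77, but its unadjusted p-value reached 0.0599 without rilmenidine 1, and with log2 Malat1 as a covariate it was 0.0938. Markers of other nephron segments did not move as 1 group. The principal cell genes Aqp2 and Aqp3 had log2 fold changes of 0.58 and 0.34, and their sum was 92.0 to 128 CPM in control and 135 to 172 CPM in rilmenidine kidneys. Of the thick ascending limb genes, Umod had a log2 fold change of 0.61 and Slc12a1 had 0.08. Umod stood at 1501, 1178, 1906 and 1986 CPM in rilmenidine kidneys 1 to 4 and at 909 to 1451 CPM in control kidneys. The distal convoluted tubule genes Slc12a3 and Pvalb had −0.55 and −0.35, and the intercalated cell gene Atp6v1g3 had 0.11. None of these passed the adjusted threshold, and their part in the difference of Abcc4 was not tested.

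Abcb1a (ENSMUSG00000040584; chromosome 5, 8660077 to 8748575), 1 of 2 mouse genes of P-glycoprotein, was the lowest of the 9 and did not pass the filter, with at least 6 reads in 3 kidneys. Control kidneys 1 to 6 had 1, 4, 3, 1, 3 and 3 raw counts, or 0.743 to 2.49 CPM, and rilmenidine kidneys 1 to 4 had 5, 10, 11 and 9, or 2.81 to 5.43 CPM. All 4 rilmenidine kidneys lay above all 6 control kidneys on the CPM scale. Such a separation was found for 0.373% of the 4288 genes with a mean of 1 to 5 CPM, and an exact permutation test of Abcb1a alone gave p = 0.00476, the smallest that the 210 splits of the kidneys allow. Pooled over the group, the level was 1.59 CPM (95% exact Poisson interval 0.893 to 2.63) in control and 3.64 CPM (2.53 to 5.06) in rilmenidine kidneys, which overlap slightly and cover counting error only. With the lower filter of 1 count in any kidney, edgeR put the log2 fold change at 1.18 (SE 0.75, adjusted p-value 0.638). Abcb1b, the paralog, had at most 9 counts in a library, and 7.49% of 100-base stretches of the Abcb1a transcript occur unchanged in Abcb1b, so reads from them could have been shared. That share is over the whole transcript, and the share at its 3′ end was not measured. The 3 endothelial markers (Pecam1, Kdr and Emcn) summed to 81.3 to 168 CPM in control and 129 to 176 CPM in rilmenidine kidneys, and their part in the Abcb1a values was not tested.

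**Figure D2:**
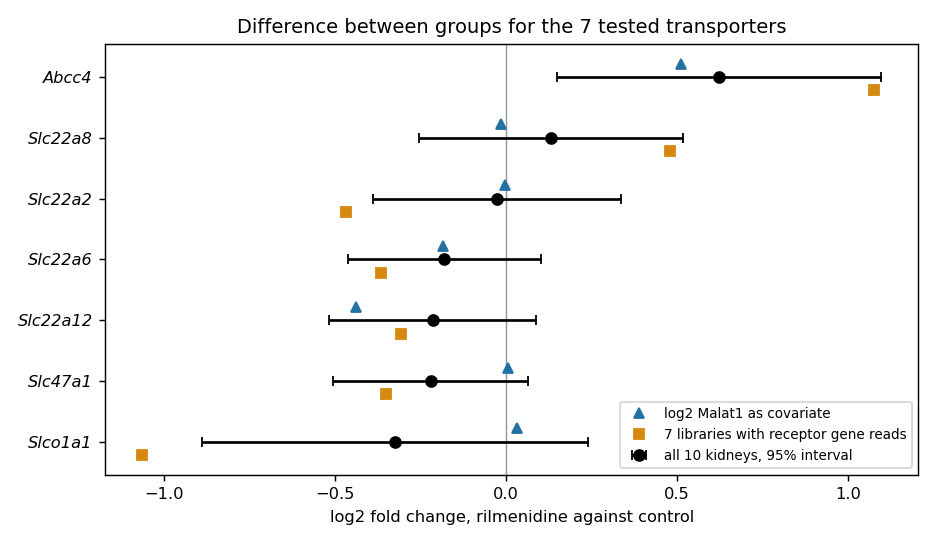
Log2 fold change between rilmenidine and control kidneys (horizontal axis) for the 7 transporters that passed the filter. Black points with bars are the values over all 10 kidneys with 95% intervals, blue triangles the values with log2 Malat1 as a covariate, and orange squares those among the 7 libraries that held receptor gene reads. Only the interval of Abcc4, 0.15 to 1.10, does not reach 0, and the orange squares lie farther from 0 than the black points for all 7 genes.

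Because the receptor gene reads divide the libraries, the comparison was repeated within the 7 libraries that had at least 10 CPM on them, 5 control kidneys with rilmenidine 1 and 2. This subset was chosen after the data had been seen. Its only rilmenidine kidneys are the pair described above as lying outside the control range for Slc22a2, Slc22a6, Slc22a8, Slco1a1 and Abcc4. The values of the subset thus restate that and are not independent of it. In it 5 of the 7 transporters had an unadjusted p-value under 0.05, against 10.6% of 9796 genes tested, and 0 passed adjustment. The log2 fold changes were −1.06 for Slco1a1, 1.08 for Abcc4, −0.47 for Slc22a2, 0.48 for Slc22a8 and −0.37 for Slc22a6, with adjusted p-values from 0.317 to 0.459 by edgeR. The remaining 3 libraries, control 6 with rilmenidine 3 and 4, hold a single control kidney and gave no test. In the values by kidney above, the levels of Slc22a2 and Slco1a1 in rilmenidine 3 and 4 exceeded those in rilmenidine 1 and 2. Whether the receptor reads mark anything that acts on these genes was not tested.

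**Figure D3:**
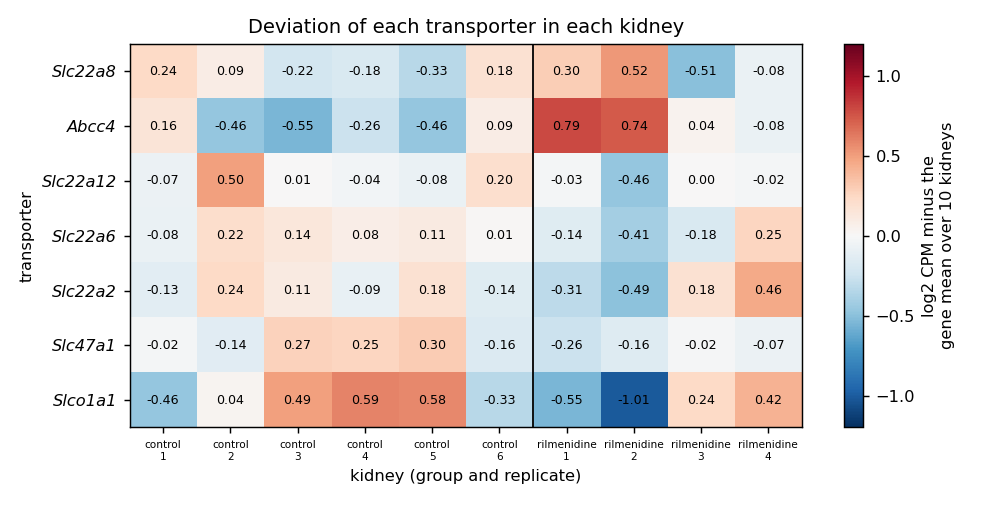
Deviation of log2 normalized CPM from the mean of each gene over the 10 kidneys (colour and printed value) for the 7 transporters that passed the filter, by kidney. Slco1a1 ranges from −1.01 in rilmenidine 2 to 0.59 in control 4, and Slc22a8 and Abcc4 tend to the opposite sign in the same kidneys.

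Some pairs of transporters varied together between kidneys. Correlations of log2 CPM were computed for all 21 pairs of the 7 genes over 10 kidneys, with permutation p-values from 100000 resamples adjusted over the 21 pairs. Both Pearson's r and Spearman's rho passed an adjusted p-value of 0.05 for 3 pairs, all with Slco1a1 as a partner. By Pearson's r alone 10 of the 21 pairs passed, some of them without Slco1a1. Among those were Slc22a6 with Abcc4 (r = −0.81, adjusted permutation p = 0.0288) and Slc22a2 with Slc22a6 (r = 0.80, adjusted permutation p = 0.0296). The share of such correlations among pairs of all genes tested was not measured. Slco1a1 and Slc22a8 were opposed, with r = −0.89 (permutation p = 0.00099, adjusted 0.0168) and rho = −0.84 (permutation p = 0.00363, adjusted 0.0354) over 10 kidneys. Without the 2 kidneys farthest from the median of Slc22a8 this r was −0.97. It was −0.97 within the 6 control kidneys and −0.98 within the 7 libraries with receptor reads. The ratio of Slc22a8 to Slco1a1 counts was 2.64 and 4.23 in rilmenidine 1 and 2 and 0.876 and 1.04 in rilmenidine 3 and 4, and it ranged from 0.779 in control 5 to 2.37 in control 1.

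Slco1a1 and Abcc4 were opposed as well, with r = −0.85 (permutation p = 0.0016, adjusted 0.0168) and rho = −0.84 (permutation p = 0.00348, adjusted 0.0354). The r was −0.67 without the 2 kidneys farthest from the median of Slco1a1, −0.82 within control kidneys and −0.89 within the 7 libraries. Slco1a1 and Slc47a1 varied in the same direction, with r = 0.77 (permutation p = 0.0126, adjusted 0.0336) and rho = 0.82 (permutation p = 0.00599, adjusted 0.0354). For this pair r was 0.68 without the 2 kidneys farthest from the median of Slc47a1. It was 0.87 within control kidneys and 0.86 within the 7 libraries. Adjacent Slc22a6 and Slc22a8, whose start sites are printed above, had r = −0.45 (permutation p = 0.193, adjusted 0.253) and rho = −0.37 (permutation p = 0.294, adjusted 0.386), which did not pass. All values of a kidney share 1 library and its scaling, so errors of scaling enter each pair alike.

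**Figure D4:**
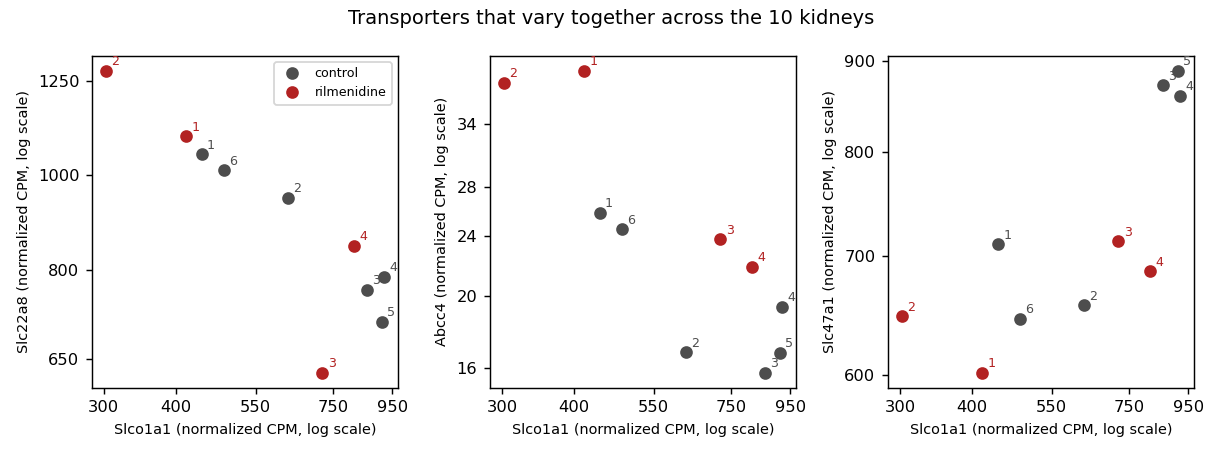
Normalized CPM on log axes of Slc22a8 (left), Abcc4 (middle) and Slc47a1 (right) against Slco1a1 in control kidneys (grey) and rilmenidine kidneys (red), with replicate numbers. Points run downwards in the first and second panels (r = −0.89 and −0.85) and upwards in the third (r = 0.77), and rilmenidine 1 and 2 lie at the low end of Slco1a1.

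For each tested transporter, the gene with the most similar pattern was sought among all genes tested, by Pearson's r over the 10 kidneys after the mean of each group had been subtracted. The nearest genes were Ggt1 for Slc22a2 (r = 0.94), Cyp4b1 for Slc22a6 (r = 0.98), Dennd1c for Slc22a8 (r = 0.95), Tpi1 for Slc22a12 (r = 0.97), Cmtm6 for Slco1a1 (r = 0.95) and Gatm for Abcc4 (r = 0.94). For Slc47a1 it was another carrier of the SLC22 family, Slc22a30 (r = 0.99). The next in order were Them4 and Dmwd for Slc22a2 and Slc22a6 (r = 0.92 and 0.93), Tspan18 for Slc22a8 (r = 0.95), Chmp6 for Slc22a12 (r = 0.96), Phf20l1 for Slc47a1 (r = 0.98), Acot12 for Slco1a1 (r = 0.94) and Nap1l5 for Abcc4 (r = 0.94). Without subtracting the group means, as in the correlations between transporters, r for the nearest genes was 0.43 for Tpi1, 0.62 for Gatm, 0.80 for Cyp4b1 and 0.93 to 0.99 for the nearest genes of the other 4 transporters. For the next in order it was 0.79 for Chmp6, 0.81 for Nap1l5, 0.88 for Dmwd, 0.89 for Acot12, and 0.92 to 0.98 for the other 3. These are the highest of many correlations over few kidneys and serve as a description only.

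Beyond the 9 genes, 45 further carriers of the same families and 10 scaffold proteins and transcription factors that act on them were read. Of these 55 genes 32 passed the filter and 0 had an adjusted p-value under 0.05. Unadjusted p-values under 0.05 belonged to 6, with 4 higher and 2 lower in rilmenidine kidneys, where 4.43% and 6.13% of all genes tested were higher and lower at that level. The median log2 fold change of the 32 genes was 0.01. By family, the 6 genes were 4 of 6 tested organic anion carriers of the SLC22 family (Slc22a28, Slc22a30, Slc22a13 and Slc22a19), 1 of 3 other SLC22 carriers (Slc22a18) and 1 of 2 dicarboxylate carriers (Slc13a2). None of 3 organic cation and carnitine carriers, 4 organic anion transporting polypeptides, 4 ATP-driven pumps, 4 urate and phosphate-linked carriers and 6 regulators was among them. Slc22a19 and Slc13a2 were named after their values had been seen.

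Slc22a28 had the smallest p-value of the 55. Its levels were 181, 201, 392, 356, 428 and 184 CPM in control kidneys 1 to 6 and 113, 112, 144 and 139 CPM in rilmenidine kidneys 1 to 4, so that the groups did not overlap, as for 1.67% of all genes tested. The log2 fold change was −1.19 (SE 0.24), with an edgeR p-value of 0.000158, or 0.174 once adjusted, and an exact permutation test of this gene alone gave p = 0.0190. The adjusted p-value was 0.00237 in the DESeq2 Wald test and 0.00611 in the edgeR likelihood ratio test, and with log2 Malat1 as a covariate the log2 fold change was −0.63. Slc22a30, a nearby paralog, had 278, 210.3, 657, 614, 710.3 and 218 CPM in control and 140.3, 179, 261 and 261 CPM in rilmenidine kidneys. Control kidneys 3, 4 and 5 were the highest for both genes, as they were for Slc47a1. The log2 fold change of Slc22a30 was −1.09 (SE 0.34, adjusted p-value 0.286 by edgeR), and −0.12 with log2 Malat1 as a covariate. Annotated transcripts of the pair share an unbroken run of 637 bases, and 36.9% of 100-base stretches of Slc22a28 occur in Slc22a30, so the division of reads between them is uncertain. These stretches were taken along the whole transcript, and the share at the 3′ end that the libraries capture was not measured.

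Slc22a13 and Slc22a19 differed the other way. Slc22a13, a urate and nicotinate exchanger, had 32.4 to 82.2 CPM in control kidneys and 28.4, 87.4, 150.1 and 145 CPM in rilmenidine kidneys 1 to 4, a log2 fold change of 0.99 (SE 0.35, adjusted p-value 0.321 by edgeR). Slc22a19 had 28.1 to 233 CPM in control kidneys and 31.3, 121, 429 and 370.1 CPM in rilmenidine kidneys, a log2 fold change of 1.43 (SE 0.55, adjusted p-value 0.368 by edgeR). Rilmenidine 3 and 4 were the highest of all 10 kidneys for both genes, and rilmenidine 1 was the lowest of its group for both. Within the 7 libraries with receptor reads, which leave out rilmenidine 3 and 4, the values were 0.03 and −0.42. Both genes had an exact permutation p above 0.05, at 0.176 and 0.224.

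Slc22a18, counted above with the other SLC22 carriers, had 419.8 to 522 CPM in control and 483 to 632 CPM in rilmenidine kidneys (log2 fold change 0.26, SE 0.12). Slc13a2, which returns dicarboxylates from urine to the cells, had 41.5 to 70.7 CPM in control and 59.1 to 82.9 CPM in rilmenidine kidneys (log2 fold change 0.37, SE 0.16). Abcg2, the breast cancer resistance protein and the most abundant of the 55 genes on the CPM scale, had 865 ± 51.6 (SD, n = 6) and 872 ± 81.6 (SD, n = 4) CPM. Its log2 fold change was 0.01 (SE 0.12, 95% interval −0.24 to 0.26), and its sign was not the same under every alternative. Hnf4a, a factor of proximal tubule identity, had 456 ± 36.1 (SD, n = 6) and 436 ± 47.3 (SD, n = 4) CPM, with a log2 fold change of −0.06 (SE 0.12) that was 0.01 with log2 Malat1 as a covariate.

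**Figure D5:**
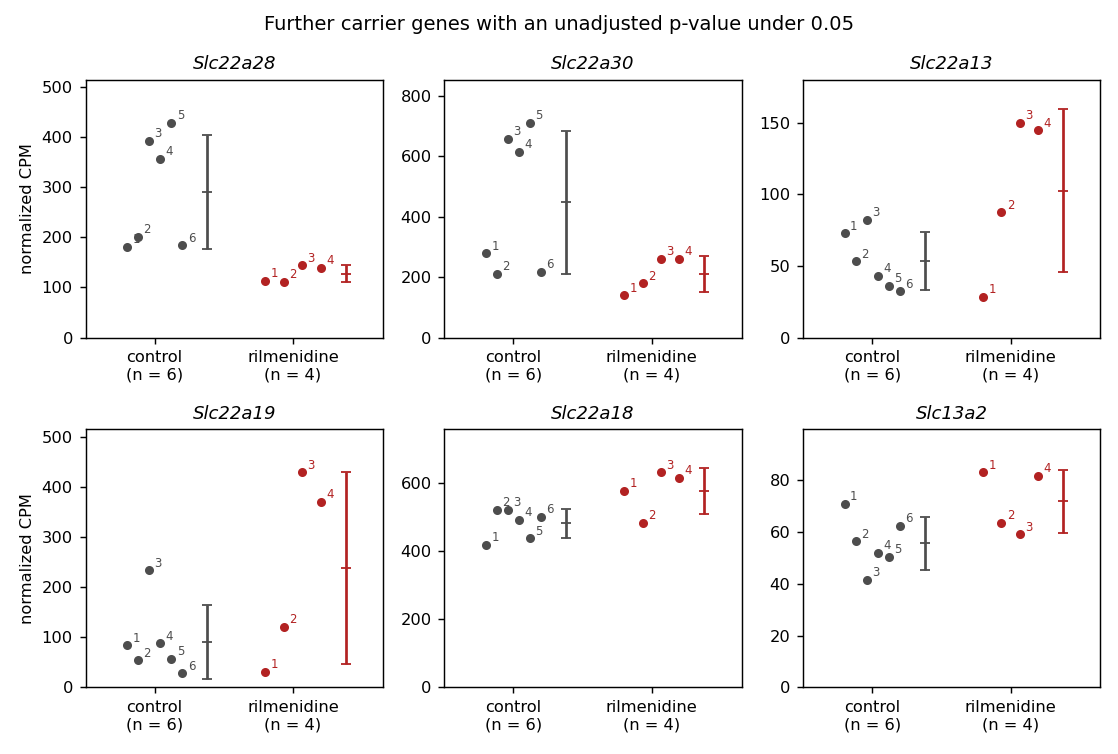
Normalized CPM (vertical axes, each starting at 0) of the 6 further carrier genes with an unadjusted p-value under 0.05, in control kidneys (grey, n = 6) and rilmenidine kidneys (red, n = 4), with replicate numbers and the mean ± SD. Control kidneys 3, 4 and 5 stand highest for Slc22a28 and Slc22a30, and rilmenidine kidneys 3 and 4 for Slc22a13 and Slc22a19.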

How the data were processed

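RNA of 10 kidneys was sequenced from libraries made with a 3′ end protocol. Per the submitters' processing notes the authors used bcl2fastq 1.8.4, Trimmomatic 0.32, STAR 2.5.2b and featureCounts 1.5 with mm10, and they deposited raw counts of reads per Ensembl gene. The annotation release, strand setting and handling of molecular identifiers are not given in the sources used here. If duplicates were not collapsed, counts overstate molecules, and intervals cover counting error only. Symbols and coordinates were taken from GENCODE M21 (GRCm38), which held 42548 of 43629 genes.

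In the deposited table of counts, 10055 genes reached 6 reads in 7 or more kidneys, the minimum taken from the study's methods along with RLE size factors. All 10 libraries entered a single quasi-likelihood fit (edgeR 4.0.16, R 4.3.3) with no covariate. P-values were adjusted by Benjamini-Hochberg over all genes tested, with a threshold of 0.05. Log2 levels used a prior count of 2. Fold changes are rilmenidine against control. Single values were compared by two-sided exact permutation over 210 splits. Alternatives were TMM, 2 other filters, DESeq2 1.42.0, the likelihood ratio test, covariates, a replicate block, leaving out each kidney and, chosen after seeing the data, the 7 libraries with receptor reads. The code was checked on simulated data.

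The members and lists were chosen with earlier results of these data known. All members were named, and of the further genes the 3 with the smallest p-value, the 3 with the highest mean CPM, and any past the threshold. Labels do not say whether replicate numbers mark a shared litter or day.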

Additional observations from a re-analysis of the deposited data

Results flagged for a closer look

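In 38 sets of values, each 1 gene, total or Malat1 level in 1 group, the highest or lowest kidney was compared with the spread of the rest by Dixon's ratio, which by chance marks about 1 set in 20. Of these sets 2 were marked. Slc22a12 in rilmenidine 2 was 254 CPM where the nearest kidney of that group had 343 CPM. Slc22a19 in control 3 was 233 CPM where the nearest control kidney had 87.7 CPM.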

How the results depend on the processing

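The count of transporters past the adjusted threshold was 0 under all 19 alternatives, and 0 of the 7 exact permutation results moved across 0.05 with TMM factors. The number of transporters with an unadjusted p-value under 0.05 was 1, and it became 2 with a filter of at least 1 count, 2 with log2 library size as a covariate, 2 with the replicate block, 5 within the 7 libraries with receptor reads, and 0 to 2 with single kidneys left out. For the 55 further genes the number was 6, and it became 11 with the filter of at least 1 count, 1 with log2 library size, 3 within the 7 libraries, and 2 to 9 with single kidneys left out. Among these genes Slc22a28 passed the adjusted threshold under 5 of the 19 alternatives. Slc22a30, Slc22a13 and Slc22a19 each passed it under 1. Counts with the filter of at least 1 count come from a fit whose SEs were nearly equal for the abundant transporters named above. Over all genes the count past the adjusted threshold was 0 (1061 at an unadjusted p-value under 0.05 by edgeR), and it became 241 with the filter of at least 1 count, 60 with DESeq2, 44 with the likelihood ratio test, and 0 to 37 with single kidneys left out (33 without control 2, 37 without control 6 and 6 without rilmenidine 1).

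Direction turned for Slc22a8, Slc47a1, Slco1a1 and Hnf4a with log2 Malat1 (−0.016, 0.0043, 0.032 and 0.0060), for Abcg2 with log2 library size, the replicate block and the 7 libraries (−0.0081, −0.0012 and −0.062), and for Slc22a19 within the 7 libraries (−0.42). With single kidneys left out, log2 fold changes ranged from −0.21 to 0.11 for Slc22a2, −0.035 to 0.29 for Slc22a8 and −0.044 to 0.068 for Abcg2. The cause was not tested. Deviations of same-numbered kidneys from their group means had correlations of −0.08 to 0.08. Such values cannot tell whether same-numbered kidneys share a litter or day, which was not tested. In the fit with the replicate block over replicates 1 to 4, the pairing gave 0 genes past the adjusted threshold and unadjusted p-values under 0.05 for Abcc4 and Slco1a1. Low depth limits Slco4c1 and Abcb1a, which had at most 27 and 11 counts in a library.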

Other observations

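Markers of the last part (S3) of the proximal tubule spread across the kidneys in different ways. Cyp7b1, a steroid hydroxylase, had 16.8 to 80.5 CPM in control kidneys and 9.86, 51.0, 210.2 and 141 CPM in rilmenidine kidneys 1 to 4, with a log2 fold change of 1.52 (SE 0.53, adjusted p-value 0.321 by edgeR). Atp11a had 1223 to 2561 CPM in control kidneys, with the highest values in control 3, 4 and 5, and 809, 907, 1797 and 1982 CPM in rilmenidine kidneys. Slc7a13, a cystine and aspartate carrier, had 412 to 943 CPM in control kidneys and 482, 516, 902 and 917 CPM in rilmenidine kidneys. In each of the 3 genes rilmenidine 3 and 4 exceeded rilmenidine 1 and 2. Bcl6, a repressor, ranged from 9.80 to 181 CPM over the 10 kidneys with no separation of the groups (log2 fold change −0.96, SE 0.56, adjusted p-value 0.578 by edgeR).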
